A study of Mus musculus with 11 samples.

Results

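The core circadian clock genes are a short list of transcription factors and repressors that drive a daily rhythm of transcription in nearly every cell type. Of 10 listed genes (Arntl, Clock, Per1, Per2, Per3, Cry1, Cry2, Nr1d1, Nr1d2 and Dbp), 9 were measured among the 28222 genes of the count table, and Per3 was not analysed here. The genes were taken from a list of names, without a threshold on their values, but with earlier results of these data known. RNA was sequenced from mesenchymal stem cells (MSCs) of mouse bone, which are stromal cells able to form bone, fat and cartilage, in 11 cultures. All cultures were kept at 2% oxygen in serum-containing medium. Young mice (3 to 5 months old) gave 6 libraries and old mice (18 to 22 months old) gave 5. The labels placed them in 3 batches: batch A with 4 young libraries (A young), batch B with 2 young and 2 old libraries (B young and B old), and batch C with 3 old libraries (C old). Age could therefore be compared within batch B only, and neither the age nor the batch labels say when in the day the cells were harvested.

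In the clock, BMAL1 (encoded by Arntl) pairs with CLOCK and switches on genes that carry E-boxes, among them the Per, Cry and Nr1d genes and Dbp. PER and CRY proteins then repress BMAL1 and CLOCK, while NR1D1 and NR1D2 (REV-ERB alpha and beta) repress Arntl through ROR elements, so that Arntl peaks when Nr1d1, Dbp and the Per genes are low. Cells in culture keep this loop, lose synchrony with each other over days, and can be set to a common phase by serum, cAMP or glucocorticoids.

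Short stretches of promoter sequence are given because they hold letters of the motifs named above. The windows span 250 bases before to 50 bases after a gene start (RefSeq, GRCm38.p6), and 8 of the 9 measured genes had at least 1 window, 12 windows in all. Per2 had none. Motifs were searched on both strands, and capitals mark the match in each stretch of 30 bases, which is written 5′ to 3′ on the strand of the gene. The E-box (CACGTG) was found in Cry1 and Per1, the related E′-box (CACGTT, or AACGTG on the other strand) in Cry1, Cry2 and Nr1d1, and the ROR element (TAGGTCA) in Arntl. The windows of Clock, Dbp and Nr1d2 held no match to any motif searched. The lines give Cry1 (minus strand, 60 bases before its start for the first and 79 for the second), Per1 (plus strand, 166 before), Nr1d1 (minus strand, 28 before), Cry2 (minus strand, 166 before) and Arntl (plus strand, 30 after the start of its second window).
Cry1 E-box, chr10:85185097-85185126: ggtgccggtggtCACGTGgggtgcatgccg
Cry1 E′-box, chr10:85185116-85185145: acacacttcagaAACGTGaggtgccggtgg
Per1 E-box, chr11:69098771-69098800: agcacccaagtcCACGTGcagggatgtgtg
Nr1d1 E′-box, chr11:98775388-98775417: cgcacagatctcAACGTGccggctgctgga
Cry2 E′-box, chr2:92434218-92434247: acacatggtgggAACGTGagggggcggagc
Arntl ROR element, chr7:113207529-113207558: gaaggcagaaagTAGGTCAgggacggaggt
Of all 32851 windows, 7.15% held the E-box, 4.68% the E′-box and 2.61% the ROR element. Neither the D-box (TTATGTAA, bound by DBP and its relatives, in 0.938% of all windows) nor the cAMP response element (TGACGTCA, in 1.79%) was found in the windows of the 8 genes. A match describes letters in these windows only.

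Libraries held 11969336 to 20315934 counts, and a floor of 3 counts lay at 0.148 to 0.251 CPM (counts divided by the scaled library total), which covers counting error only. The clock genes lay far above this, with 62 counts (Arntl in A young) as the lowest value of any of them. Nothing in the sources says which mice or cultures the replicates came from, so that p-values measure the spread between these samples, which may be technical. The study's methods were written for its oxygen comparison. They describe cells sorted for Sca-1 (encoded by Ly6a) and CD140a (Pdgfra) and against CD45 (Ptprc), and it is not stated whether the young and old libraries were made likewise. Mean Pdgfra was 189, 215, 119 and 278 CPM in A young, B young, B old and C old. Mean Ly6a was 456, 714, 608 and 293 CPM in the same order. In the age comparison described below, Pdgfra was lower in old (log2 difference -0.86, SE 0.15, edgeR adjusted p = 0.0059). Ptprc, which marks blood cells, was not absent with means of 4.04 to 19.9 CPM. The summed level of 15 haematopoietic markers was 863 to 1969 CPM in A young, 473 to 999 CPM in B young, 999 to 1404 CPM in B old and 185 to 220 CPM in C old. In bulk samples, fewer cells of a type and less RNA per cell cannot be told apart.

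In these MSCs the clock genes did not differ detectably between ages within batch B, and only 2.23% of all genes did. Most clock genes differed between batches at constant age. The share of all genes that differed was 18.1% for B young against A young and 64.7% for C old against B old. For the age comparison batch entered the fit of all 11 libraries as a covariate, in the quasi-likelihood test of edgeR with Benjamini-Hochberg adjustment over all genes tested (threshold 0.05), as in all comparisons that follow. Of the 9 clock genes, 0 differed with age, against 2.23% of all 16132 genes tested (0.694% higher and 1.54% lower in old). A count of 0 among 9 genes is near that share. At an unadjusted p under 0.05 the count was also 0, and limma-trend and DESeq2 called 0 as well. Over all genes the number called fell from 360 to 84 without B old replicate 1 and rose to 2007 without B young replicate 2, whereas 0 clock genes were called in either case.

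Within the young libraries, 8 of 9 clock genes differed between batches B and A, against 18.1% of 14840 genes tested. Arntl, Clock and Cry1 were higher in batch B (9.39% of all genes were called higher), and Per1, Per2, Cry2, Nr1d1 and Dbp were lower (8.71% of all genes). Within the old libraries, 8 of 9 clock genes differed between batches C and B, but so did 64.7% of 15651 genes. Per1, Per2, Cry2, Nr1d1 and Dbp were higher in batch C (32.1% of all genes) and Arntl, Cry1 and Nr1d2 were lower (32.6% of all genes). Both comparisons involve batch B, although different libraries of it.

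**Figure D1:**
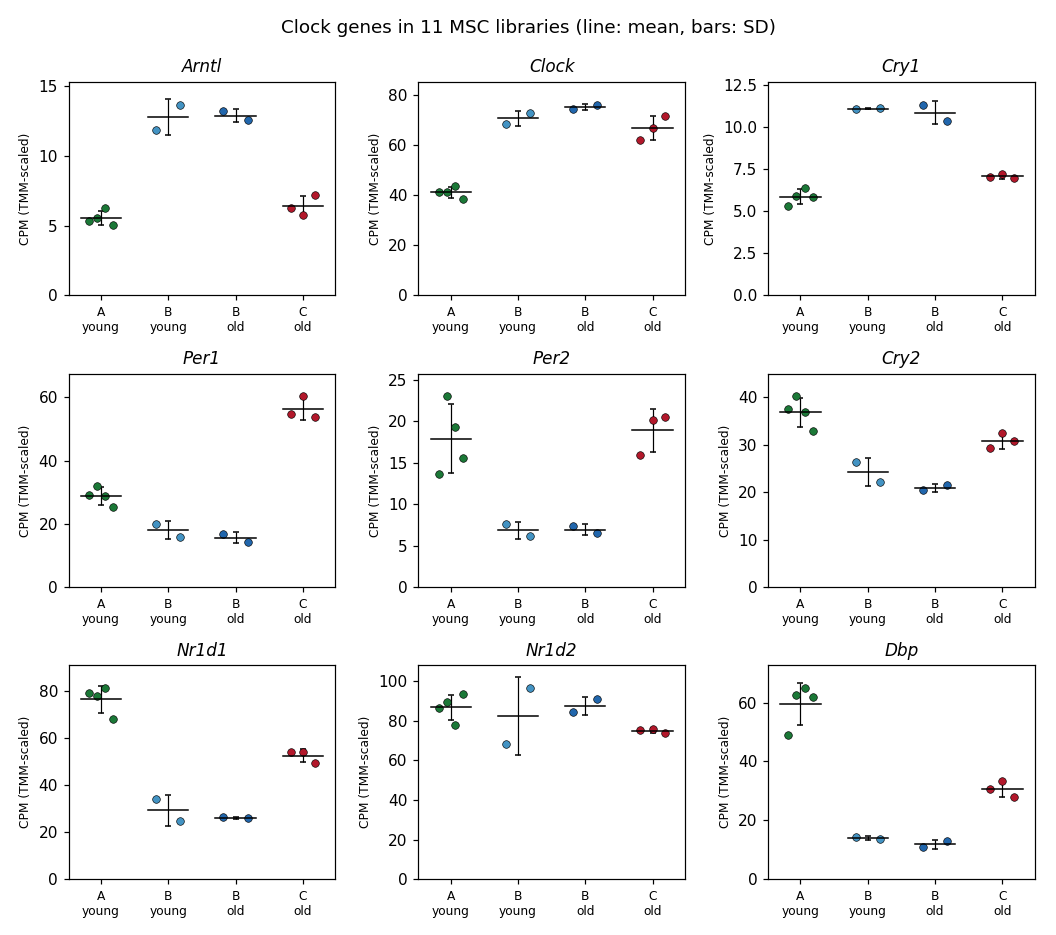
CPM (linear axes from 0) of the 9 clock genes in each of 11 libraries by batch and age, with 1 point per library, a line for the mean and bars for the SD. In batch B, both ages lie at 11.9 to 13.7 CPM for Arntl and at 10.8 to 14.3 CPM for Dbp, outside the range of batches A and C.

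The positive arm is formed by Arntl and Clock. Arntl (ENSMUSG00000055116, GRCm38 chr7:113207465-113314126, plus strand) encodes the bHLH-PAS factor BMAL1. Its level was 5.32, 5.57, 6.28 and 5.04 CPM in the 4 A young libraries, 11.9 and 13.7 CPM in B young, 13.2 and 12.6 CPM in B old, and 6.30, 5.76 and 7.18 CPM in C old. All 4 libraries of batch B lay above the 7 others, the ages within batch B overlapped, and so did A young and C old. Arntl was 2.34-fold higher in B young than in A young (log2 difference 1.22, SE 0.18, edgeR adjusted p = 0.00178) and lower in C old than in B old (-1.01, SE 0.14, adjusted p = 5.37e-05). The age difference was 0.014 (SE 0.17, 95% confidence interval -0.34 to 0.37, adjusted p = 0.978). An annotated antisense gene, Gm45355, overlaps Arntl, and whether strand was used in counting is not stated.

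Clock (ENSMUSG00000029238, chr5:76209868-76304792, minus strand) encodes the partner of BMAL1, which has histone acetyltransferase activity. Its level was 41.1, 41.5, 43.8 and 38.4 CPM in A young, 68.6 and 72.9 CPM in B young, 74.3 and 76.2 CPM in B old, and 62.1, 66.7 and 71.8 CPM in C old. The A young libraries lay below all others, while batches B and C overlapped when both ages of batch B were taken. Clock was 1.74-fold higher in B young than in A young (log2 difference 0.80, SE 0.11, edgeR adjusted p = 0.00166). C old against B old gave -0.18 (SE 0.073), just outside the threshold with an adjusted p of 0.0525. That last value passed in 5 of 15 alternatives, among them without C old replicate 3 (-0.22, adjusted p = 0.0342), and turned to 0.017 (adjusted p = 0.853) when libraries were scaled by total counts. For age the difference was 0.090 (SE 0.11, interval -0.13 to 0.31).

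The negative arm holds the Per and Cry genes. Cry1 (ENSMUSG00000020038, chr10:85131700-85185064, minus strand) encodes a repressor of BMAL1 and CLOCK whose transcription is delayed against that of the Per genes and is itself inhibited by NR1D1. Its level was 5.32, 5.91, 6.36 and 5.85 CPM in A young, 11.04 and 11.09 CPM in B young, 11.3 and 10.3 CPM in B old, and 7.002, 7.198 and 6.961 CPM in C old. As for Arntl, all 4 libraries of batch B lay above the others, and here A young and C old did not overlap either. Cry1 was 1.92-fold higher in B young than in A young (log2 difference 0.94, SE 0.18, edgeR adjusted p = 0.00497) and lower in C old than in B old (-0.62, SE 0.13, adjusted p = 0.00152).

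Per1 (ENSMUSG00000020893, chr11:69095217-69109960, plus strand) encodes a repressor that is also an immediate early gene induced by cAMP and glucocorticoids. Its level was 29.0, 32.1, 28.9 and 25.3 CPM in A young, 20.1 and 16.0 CPM in B young, 16.8 and 14.4 CPM in B old, and 54.8, 60.3 and 53.9 CPM in C old. The 3 batches did not overlap, with B lowest and C highest. Per1 was 3.60-fold higher in C old than in B old (log2 difference 1.85, SE 0.096, edgeR adjusted p = 1.76e-08). It was lower in B young than in A young (-0.65, SE 0.15, adjusted p = 0.0126), which was not retained without B young replicate 2 (-0.50, adjusted p = 0.115).

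Per2 (ENSMUSG00000055866, chr1:91415982-91459324, minus strand) encodes the PER protein whose loss shortens or abolishes rhythms in mice. Its level was 13.6, 23.0, 19.3 and 15.6 CPM in A young, 7.55 and 6.12 CPM in B young, 7.41 and 6.48 CPM in B old, and 15.9, 20.2 and 20.5 CPM in C old. Batch B lay below both other batches, whose ranges overlapped. Per2 was 2.55-fold lower in B young than in A young (log2 difference -1.35, SE 0.22, edgeR adjusted p = 0.00293) and 2.70-fold higher in C old than in B old (1.43, SE 0.15, adjusted p = 4.7e-06). It had the widest age interval of the 9 genes, -0.50 to 0.53 around 0.014.

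Cry2 (ENSMUSG00000068742, chr2:92403646-92434043, minus strand) encodes the second cryptochrome and overlaps the noncoding gene D930015M05Rik on the other strand. Its level was 37.6, 40.2, 36.8 and 32.8 CPM in A young, 26.3 and 22.1 CPM in B young, 20.4 and 21.6 CPM in B old, and 29.2, 32.6 and 30.7 CPM in C old. Unlike Cry1, it was lowest in batch B. Cry2 was lower in B young than in A young (-0.58, SE 0.14, edgeR adjusted p = 0.0133), again not without B young replicate 2 (-0.46, adjusted p = 0.109), and higher in C old than in B old (0.55, SE 0.090, adjusted p = 0.000191).

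The nuclear receptors Nr1d1 and Nr1d2, repressors of Arntl, differed from each other in pattern. Nr1d1 (ENSMUSG00000020889, chr11:98767932-98775333, minus strand) was measured at 78.8, 77.8, 81.0 and 67.9 CPM in A young, 33.9 and 24.6 CPM in B young, 26.4 and 25.8 CPM in B old, and 53.9, 54.0 and 49.2 CPM in C old. The 3 batches were separate, with A highest and B lowest. Nr1d1 was 2.57-fold lower in B young than in A young (log2 difference -1.36, SE 0.15, edgeR adjusted p = 0.000561) and 2.00-fold higher in C old than in B old (1.00, SE 0.079, adjusted p = 4.5e-07). Nr1d1 overlaps Thra on the other strand. Thra, a thyroid hormone receptor, gave a log2 difference of -0.10 between B young and A young (adjusted p = 0.679) and of 0.36 between C old and B old (adjusted p = 0.00379).

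Nr1d2 (ENSMUSG00000021775, chr14:18204054-18239127, minus strand) had the smallest spread of the clock genes, 1.41-fold between its lowest and highest library. Its level was 86.1, 89.2, 78.0 and 93.4 CPM in A young, 68.3 and 96.3 CPM in B young, 84.2 and 90.7 CPM in B old, and 75.2, 76.0 and 73.7 CPM in C old. The extremes were the 2 B young libraries, so that batch B covered the range of all others. The log2 difference of B young against A young was -0.053 (SE 0.15, interval -0.37 to 0.27, edgeR adjusted p = 0.832). C old was lower than B old by a small step (-0.23, SE 0.064, adjusted p = 0.00851), which was lost without B old replicate 2 (-0.18, adjusted p = 0.0590) and with total counts (-0.034, adjusted p = 0.673).

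Dbp (ENSMUSG00000059824, chr7:45705088-45710203, plus strand), a PAR bZIP factor that activates clock output genes at D-boxes, had the widest spread with 6.02-fold. Its level was 49.0, 62.6, 64.8 and 61.7 CPM in A young, 14.3 and 13.5 CPM in B young, 10.8 and 13.0 CPM in B old, and 30.8, 33.4 and 27.8 CPM in C old. None of the 3 batches overlapped another. Dbp was 4.21-fold lower in B young than in A young (log2 difference -2.07, SE 0.15, edgeR adjusted p = 2.44e-05) and 2.58-fold higher in C old than in B old (1.37, SE 0.12, adjusted p = 9.74e-07). Within batch B the old libraries lay just below the young ones, and the age difference was -0.23 (SE 0.16, interval -0.57 to 0.11, adjusted p = 0.509). Its neighbour Sphk2, a sphingosine kinase gene that overlaps it on the other strand, gave -0.26 (adjusted p = 0.201) between B young and A young and -0.27 (adjusted p = 0.0165) between C old and B old, the opposite direction to Dbp in the latter.

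**Figure D2:**
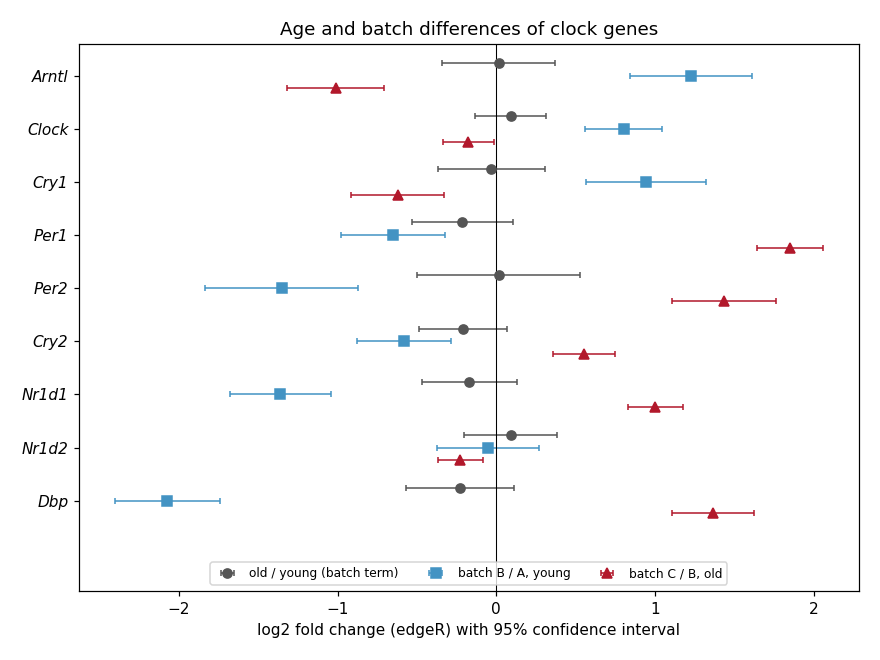
log2 fold change (edgeR) with 95% confidence interval of the 9 clock genes for age with batch as a covariate (grey circles), batch B against A in young cells (blue squares) and batch C against B in old cells (red triangles). All 9 age intervals cover 0, while Dbp reaches -2.07 and Per1 1.85 between batches.

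Over the 9 genes the lowest bound of the age intervals was -0.57 (Dbp) and the highest 0.53 (Per2), and the median absolute difference was 0.090 against 0.21 for all genes tested. Per1 gave -0.21 (SE 0.15), Cry2 -0.21 (SE 0.13) and Nr1d1 -0.17 (SE 0.14), with edgeR adjusted p-values of 0.507, 0.459 and 0.587, while Cry1 gave -0.031 (SE 0.16) and Nr1d2 0.090 (SE 0.14). In batch B, both old values lay on one side of both young values for 3 of 9 clock genes (Clock above, Cry2 and Dbp below), against 39.7% of all genes. The median absolute difference of the clock genes was 0.94 between B young and A young, where it was 0.30 for all genes, and 1.00 between C old and B old, where it was 0.56.

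For 7 of the 9 clock genes, all 4 libraries of batch B lay outside the range of the 7 libraries of batches A and C, against 14.4% of all 16132 genes. Arntl and Cry1 lay above this range, and Per1, Per2, Cry2, Nr1d1 and Dbp below it. The count was 7 with RLE factors and with total counts, and 7 or 8 when any library was left out. The same 7 genes were called in both batch comparisons above, so that this count restates those results on the same libraries. In these genes batch B stood apart in both ages. C old was compared with A young after the values were known, in which case age and batch change together. Of 9 clock genes, 5 differed, against 63.8% of 15021 genes. Per1 (1.03, SE 0.085), Clock (0.76, SE 0.075) and Cry1 (0.33, SE 0.14) were higher in C old (32.0% of all genes), and Dbp (-0.89, SE 0.11) and Nr1d1 (-0.48, SE 0.077) were lower (31.9%). Cry1 was close to the threshold (edgeR adjusted p = 0.0485) and missed it in 14 of 17 alternatives, including each fit without 1 of the libraries. Clock fell to 0.12 (adjusted p = 0.159) after the length and GC correction described below.

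Arntl was then set against 3 of the genes that peak opposite to it, Nr1d1, Dbp and Per2. The value was the difference in log2 CPM within a library, in which the scaling of the library largely cancels. Nr1d2 and Per1 were not set against it. For Nr1d2, batch B covered the range of the other batches (68.3 to 96.3 against 73.7 to 93.4 CPM). Per1 was highest in C old, whereas Nr1d1 and Dbp were highest in A young. Arntl minus Nr1d1 was -3.75 ± 0.083 in A young (SD, n = 4), -1.17 ± 0.47 in B young (n = 2), -1.01 ± 0.026 in B old (n = 2) and -3.01 ± 0.23 in C old (n = 3). Arntl minus Dbp was -3.39 ± 0.17, -0.12 ± 0.20, 0.12 ± 0.24 and -2.23 ± 0.29 in the same order, and Arntl minus Per2 was -1.64 ± 0.28, 0.89 ± 0.35, 0.88 ± 0.084 and -1.53 ± 0.23. In each of the 3 pairs batch B lay above both other batches without overlap, and its ages overlapped. These differences are made from the same values as the batch comparisons above and do not add to them. Batches A and C were separate for Nr1d1 and Dbp but overlapped for Per2. The clock time of harvest, the time since the last change of medium and the passage of each culture are in neither the labels nor the methods, so that batch and time of harvest cannot be told apart.

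**Figure D3:**
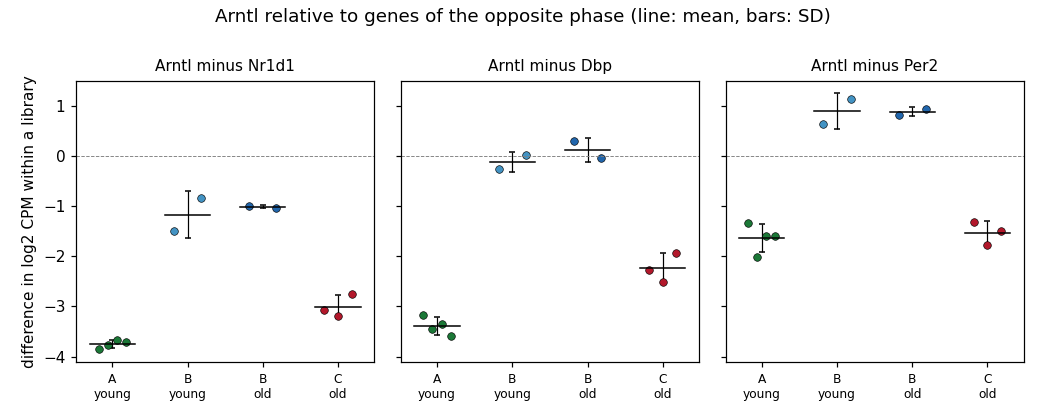
Difference in log2 CPM between Arntl and Nr1d1, Dbp or Per2 within each library (vertical axis) by batch and age, with 1 point per library, a line for the mean and bars for the SD. For Nr1d1, batch B lies between -1.50 and -0.84, above A young (-3.86 to -3.66) and C old (-3.20 to -2.75).

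Because libraries fell into separate clusters by batch, no correlation of levels pooled over all libraries is given. Deviations from the 4 group means were used instead. Over 11 libraries Pearson's r was -0.23 between Arntl and Nr1d1 (exact permutation within groups, two-sided p = 0.649), -0.19 between Arntl and Dbp (exact p = 0.634) and 0.24 between Arntl and Per2 (exact p = 0.561). Spearman's rho was -0.20, -0.18 and 0.25 (exact permutation p = 0.639, 0.618 and 0.549). Without the 2 most distant libraries r was -0.38, -0.34 and 0.015. For the family of 3 relations the adjusted permutation p was 0.649 for r and 0.639 for rho in each. No relation of Arntl to these 3 genes was thus detectable within groups. With 2 to 4 libraries per group a relation could have been missed, and none is excluded. The plan had held a description without a test.

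The clock genes differ in the length and GC content of their transcripts. The 5 genes that were lower in B young than in A young all had a GC content above the median of genes tested. So had Cry1, which was higher in B young. GC content of the longest transcript was 40.9% in Clock and 41.8% in Nr1d2, near the 10th percentile of genes tested (41.2%), and 61.6% in Dbp and 59.4% in Per1, above the 90th percentile (57.8%). Arntl (48.2%) and Cry1 (51.6%) lay near the median of 49.6%, and Per2 (54.3%), Cry2 (55.6%) and Nr1d1 (56.8%) between. Log2 CPM were therefore corrected in each library for length and GC content and tested with limma-trend. Between B young and A young, limma-trend without the correction called 8 of 9 clock genes, against 18.8% of all genes. After the correction 6 of 9 passed, against 13.7% of 14818 genes tested. Arntl (1.22), Cry1 (1.00), Clock (0.71), Per2 (-0.97), Nr1d1 (-1.17) and Dbp (-1.84) kept their call, whereas Per1 (-0.23, adjusted p = 0.211) and Cry2 (-0.31, adjusted p = 0.0779) did not. Between C old and B old all 9 passed, including Clock with -0.66 (limma-trend adjusted p = 5.18e-06), but so did 63.2% of 15625 genes.

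**Figure D4:**
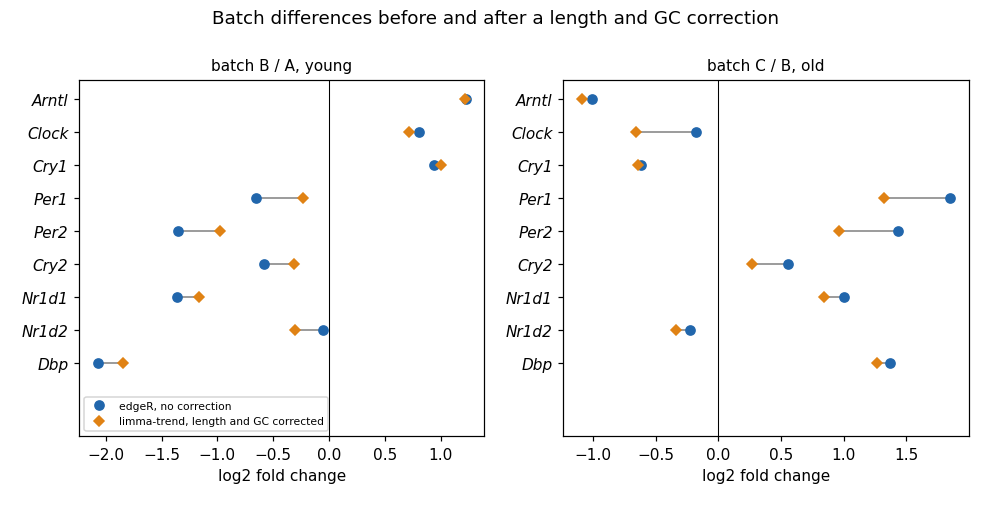
log2 fold change of the 9 clock genes between batches without correction (edgeR, blue circles) and after correction for transcript length and GC content (limma-trend, orange diamonds). Per1 moves from -0.65 to -0.23 for batch B against A, while Arntl stays at 1.22.

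Levels of different genes can be compared only per length, here as CPM per kilobase of the longest transcript. In A young the mean was highest for Dbp (32.4) and Nr1d1 (28.1), followed by Nr1d2 (18.6), Cry2 (9.27), Per1 (6.17), Clock (4.23), Per2 (3.06), Cry1 (1.94) and Arntl (1.39). Dbp and Nr1d1 overlapped within their SD (3.90 and 2.14, n = 4). In B young Nr1d2 led with 17.6 ± 4.24 (SD, n = 2), Dbp had 7.57 ± 0.33, close to Clock with 7.26 ± 0.32, and Per2 was last with 1.17 ± 0.17. In C old Nr1d1 (19.2), Dbp (16.7) and Nr1d2 (16.1) were followed by Per1 with 12.1.

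A wider list of clock partners, regulators of clock proteins and known clock outputs held 38 measured genes. With age, 1 of 37 tested genes differed, a share of 2.70% and thus near the 2.23% of all genes, and 6 passed an unadjusted p of 0.05. The gene called was Pdk4, a kinase that inhibits pyruvate dehydrogenase, which was higher in old (log2 difference 1.01, SE 0.14, edgeR adjusted p = 0.00160). Between B young and A young, 11 of 36 differed (6 higher, 5 lower), a share of 30.6% against 18.1% of all genes. Between C old and B old, 22 of 36 differed (9 higher, 13 lower), a share of 61.1% and thus near the 64.7% of all genes.

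Among partners of the core clock, 5 of 10 differed between B young and A young (18.1% of all genes) and 6 of 10 between C old and B old (64.7% of all genes). Nfil3, which represses at the D-boxes that DBP activates, was 25.1 ± 2.68 CPM in A young (SD, n = 4), 46.1 ± 2.23 CPM in B young (n = 2), 48.0 ± 0.57 CPM in B old (n = 2) and 27.8 ± 1.49 CPM in C old (n = 3). It was higher in B young than in A young (0.90, SE 0.13, edgeR adjusted p = 0.00178) and lower in C old than in B old (-0.79, SE 0.077, adjusted p = 2.65e-06). Tef, a PAR bZIP relative of Dbp, went the other way, with 105 ± 7.35, 52.7 ± 11.1, 41.4 ± 8.24 and 103 ± 6.17 CPM in the same groups. Its differences were -0.97 (SE 0.14, adjusted p = 0.00180) and 1.31 (SE 0.11, adjusted p = 5.34e-07). Bhlhe41, an E-box repressor, was lower in B young than in A young (-0.79, SE 0.19, adjusted p = 0.0160), but not without B young replicate 2 (-0.57, adjusted p = 0.155). Bhlhe41 was lower again in C old than in B old (-0.68, SE 0.22, adjusted p = 0.0170), and thus did not return as Tef did. Npas2, a paralogue of Clock, was lower in C old than in B old (-1.83, SE 0.22, adjusted p = 1.63e-05), with 2.72 ± 0.42 against 9.61 ± 2.74 CPM. Hlf, the third PAR bZIP gene, did not exceed 1.52 CPM in any library.

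Of 19 regulators of clock proteins, 3 differed between B young and A young, all higher in B young (15.8%, near the 18.1% of all genes), and 11 between C old and B old (57.9%, against 64.7%). Among them, Ppp1cb, a catalytic subunit of protein phosphatase 1, which counters the kinases that phosphorylate PER, was lower in C old than in B old (-1.18, SE 0.061, adjusted p = 1.76e-08). Of 7 outputs, 3 differed between B young and A young (42.9%, against 18.1%) and 5 between C old and B old (71.4%, against 64.7%). Wee1, the kinase that delays entry into mitosis, was lower in B young than in A young (-0.88, SE 0.14, adjusted p = 0.00232). Nampt, the rate-limiting enzyme of NAD salvage, was higher (0.55, SE 0.13, adjusted p = 0.0139), again not without B young replicate 2 (0.35, adjusted p = 0.136) or A young replicate 3 (0.52, adjusted p = 0.0505), nor after the length and GC correction (0.24, adjusted p = 0.149). Cdkn1a (-0.65, SE 0.062, adjusted p = 2.16e-06), an inhibitor of the cell cycle, and Pdk4 (-0.93, SE 0.092, adjusted p = 3.1e-06) were lower in C old than in B old. In that comparison Wee1 was not called (0.22, SE 0.10, adjusted p = 0.0687) and Nampt was lower (-0.25, SE 0.069, adjusted p = 0.00797).

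**Figure D5:**
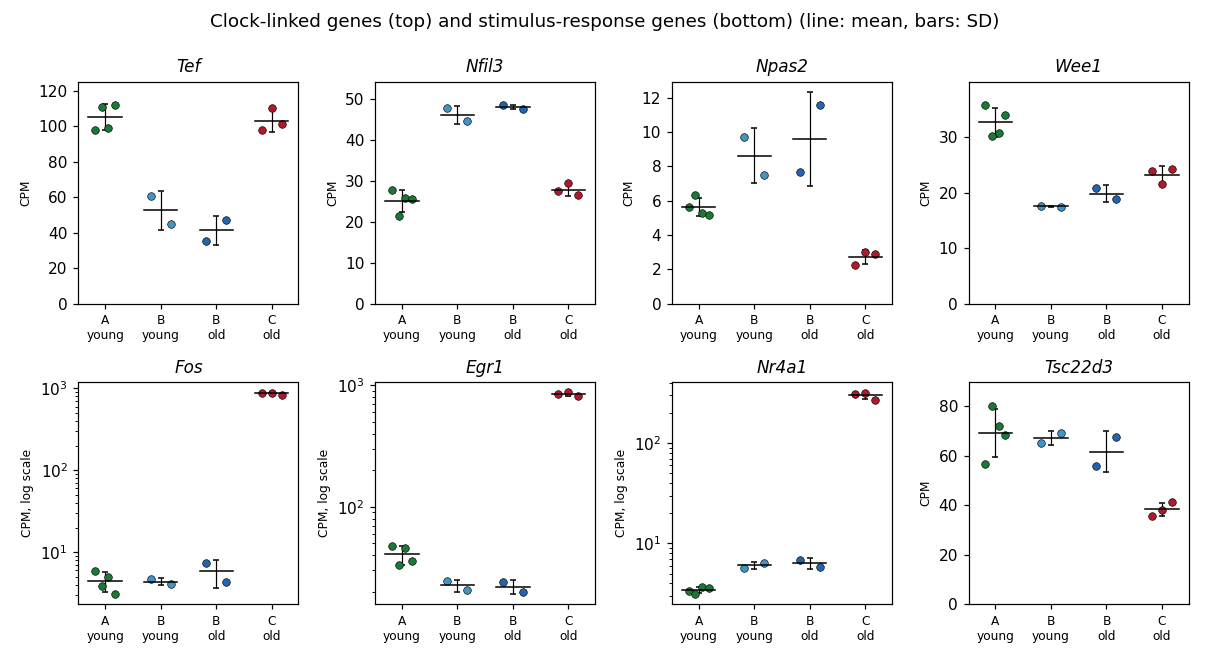
CPM in each of 11 libraries of 4 clock-linked genes (top, linear axes) and 4 genes that respond to serum, cAMP or glucocorticoid (bottom, with log axes for Fos, Egr1 and Nr4a1), with 1 point per library, a line for the mean and bars for the SD. Nfil3 and Tef separate batch B from A and C in opposite directions, whereas mean Fos is 870 CPM in C old and 4.39 to 5.91 CPM elsewhere.

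Agents that set the phase of cultured cells also induce immediate early genes, and a list of 17 genes that respond to serum, cAMP or glucocorticoid was therefore examined. This list too was chosen with earlier results of these data known. With age 0 of 17 differed in edgeR, against 2.23% of all genes (2 at an unadjusted p under 0.05, 1 by limma-trend and 2 by DESeq2). Between B young and A young 4 of 17 differed (23.5%, against 18.1% of all genes), with a median log2 difference of 0.052. Between C old and B old 14 of 17 differed (82.4%, against 64.7% of all genes), 11 of them higher in C old (32.1% of all genes), with a median of 2.73 against 0.023 for all genes. The summed level of the list was 501 to 715 CPM in A young, 577 to 602 CPM in B young, 447 to 560 CPM in B old and 4236 to 4573 CPM in C old. Fos, Egr1 and Nr4a1, named after their values were seen, had means of 870, 852 and 299 CPM in C old and of 5.91, 22.0 and 6.34 CPM in B old. The glucocorticoid targets went both ways between C old and B old. Tsc22d3 (-0.69, SE 0.092, edgeR adjusted p = 3.54e-05) and Mt2 (-1.49, SE 0.39, adjusted p = 0.00546) were lower in C old. Klf9 was higher (0.57, SE 0.091, adjusted p = 0.000159). Fkbp5 (0.23, SE 0.14, adjusted p = 0.162), Sgk1 (-0.18, SE 0.14, adjusted p = 0.298) and Zbtb16 (0.27, SE 0.72, adjusted p = 0.757) were not called. Zbtb16 lay near the floor, with 2 to 6 counts in B old and 3 to 8 in C old. Mt2 was also low, with 6 to 11 counts in C old. Per1 was highest in C old, as was the summed level of this list, while the haematopoietic sum was lowest there. The summed level of 10 proliferation markers was 277 to 548 CPM in A young, 162 to 178 CPM in B young, 218 to 323 CPM in B old and 499 to 575 CPM in C old, so that A young overlapped both old groups and the ages of batch B were separate. The part of these lists in the differences of the clock genes was not tested.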

How the data were processed

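Polyadenylated RNA of 11 MSC cultures was sequenced. The authors deposited raw counts, in whole numbers per Ensembl gene and library, without normalisation. The study's methods, written for its oxygen comparison, name zUMIs with STAR and featureCounts, and the submitters' processing notes name the builds GRCm38 and mm10. Collapse of molecular identifiers and strandedness are not stated. Columns without a sample numbered 0.

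Libraries were grouped by the age and batch in their labels. Identifiers were matched to GENCODE M21 (28179 of 28222 genes). Two-sided quasi-likelihood tests were run on the counts with edgeR 4.0.16 (R 4.3.3), after filterByExpr with a minimum count of 5 and TMM scaling, with Benjamini-Hochberg adjustment over all genes tested and a threshold of 0.05. CPM are relative to totals scaled by TMM, and a prior count of 2 was used for log2 CPM. Standard errors come from the F statistic of each fold change. For genes outside the core list, the text names those of the wider list called for age, the 6 with the smallest p called in each batch comparison, and 3 genes with the highest correlation of deviations from group means for each of Arntl, Nr1d1 and Dbp (mean of at least 5 CPM). The values of 1 gene under this rule are not reported here. Pdgfra, Ly6a and Ptprc were added as checks, as were the genes overlapping Nr1d1 and Dbp. Members and lists were chosen with earlier results of these data known, and the comparison of C old with A young was added after the data were seen.

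Alternatives were limma-trend (limma 3.58.1), DESeq2 1.42.0, total counts, RLE factors, no filter, a minimum count of 10, a correction for transcript length and GC content (loess, span 0.3), the replicate number as a block, 1 fit of all groups, no batch term, batch B alone, a prior count of 0.5, and leaving out each library. The lowest chi-square per gene between any 2 of the libraries was 3.24 (55 pairs), so that no library was a repeat of another. The tests of the age comparison were checked on simulated counts, and those of the batch comparisons were not. No library was left out.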

Additional observations from a re-analysis of the deposited data

How the results depend on the processing

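The count of clock genes was 0 for age under all 22 alternatives. It was 5 to 8 of 9 between B young and A young (16 alternatives), 7 to 9 between C old and B old (15) and 4 to 7 between C old and A young (17). Arntl, Clock, Per2, Nr1d1 and Dbp kept their direction and their call between B young and A young in all 16. No pairing of the samples by replicate number was detected (correlations of same-numbered deviations between -0.11 and 0.04), which so few libraries per group cannot exclude. With the replicate number as a block, 6 clock genes, 3 of the wider list, 2 of the response list and 729 of all genes were called between B young and A young. The length and GC correction left 7 and 2 of the lists, and together with the block 5 clock genes, 3 and 0 of the lists and 386 of all genes. A single fit of all groups called 4171 genes. Leaving out 1 library gave 511 to 4031 genes, 3 to 14 of the wider list and 0 to 4 of the response list. The low values (511, 3 and 0) arose without B young replicate 2 and 4031 without B young replicate 1, while 1293 and 1726 genes, and 5 and 7 of the wider list, were called without A young replicates 3 and 4.

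For age, DESeq2 called 640 genes in all, no filter 1094, no batch term 2641 and batch B alone 123, and leaving out 1 library gave 84 (B old replicate 1) to 2007 (B young replicate 2), with 578 without A young replicate 1, 203 without B old replicate 2 and 206 without B young replicate 1. The wider list gave 2 with the length and GC correction (2 with the block), 7 without batch term and 1 to 5 without 1 library (5 without B young replicate 2). The response list gave 1 with limma-trend, total counts, a minimum count of 10 or the length and GC correction (1 with the block), 2 with DESeq2, 3 without filter, 10 without batch term and 0 to 2 without 1 library (2 without A young replicate 1 or B young replicate 2).

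Reversed directions concerned differences that were not called. For age these were Cry1 with total counts (0.032), Arntl with the length and GC correction (-0.0024, with the block -0.0065), and Per1 (0.69), Cry1 (0.18) and Nr1d2 (-0.077) without batch term. With 1 library left out, the age difference ranged from -0.088 to 0.11 for Arntl, -0.13 to 0.18 for Per2, -0.087 to 0.029 for Cry1, -0.38 to 0.082 for Nr1d1 and -0.14 to 0.35 for Nr1d2, the turns arising without single libraries of batch B. Between B young and A young, Nr1d2 was 0.028 with total counts and -0.32 to 0.18 with 1 library left out, the positive value without B young replicate 1. With total counts Clock turned to 0.017 between C old and B old, and Cry2 (0.097) and Nr1d2 (0.14) between C old and A young. Scaling by total counts raised the share of calls that were higher from 31.1% to 44.8% for age, from 51.9% to 66.4% for B young against A young, from 49.6% to 62.9% for C old against B old and from 50.1% to 72.5% for C old against A young, and moved the median of all genes to 0.22 and 0.31 in the last 2. The cause was not tested. The age comparison rested on 2 libraries per age in batch B.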

Other observations

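The genes whose deviations from the 4 group means were most similar to those of a clock gene were looked up among 10102 genes over 11 libraries, as a description. For Arntl these were Spr (r = 0.90), Insig1 (0.88) and Zfp407 (0.86). Nr1d1 was followed most closely by Ppp1r12c (0.99), Ap3d1 (0.97) and Scaf1 (0.96), and Dbp by Dcaf4 (0.94), Ssh3 (0.94) and Pheta2 (0.93). None of these genes was in the wider clock list. All points share library and depth, and within a group only 2 to 4 libraries contribute.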
